A study of Mus musculus with 6 samples.

Results

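The genes of the nuclear pore and of the soluble nuclear transport machinery were followed in N2a cells, a mouse neuroblastoma line, after knockdown of *Npm1*. Members were taken by gene symbol: nucleoporins (Nup with a number), importins alpha and beta (Kpna, Kpnb), other importins (Ipo), transportins (Tnpo), exportins (Xpo), and *Ran*, *Ranbp1*, *Rangap1*, *Rcc1*, *Cse1l* and *Nutf2*. The rule found 51 entries for 50 genes, of 26656 genes in all, since *Ipo11* and its read-through entry share 1 Ensembl identifier. Of these, 20 are pore genes, 18 import receptors, 7 export receptors and 5 genes of the Ran cycle. A mean of at least log2 of 10 over the 6 libraries was met by 39 of them (15 pore, 14 import, 5 export, 5 Ran cycle), out of 5752 genes tested.

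N2a cells of wild-type genotype were transfected with pLKO.1-shNpm1 (NPM1 KD) or with the non-target construct pLKO.1-shCTR (CTR) and harvested after 72 h, with 3 libraries per condition. Puromycin at 9.3 µg/ml from 24 h after transfection is stated for the NPM1 KD cells, and whether the CTR cells received it was not clear from the labels. A single shRNA against *Npm1* and a single cell line were used, and the control libraries carry the same vector with another hairpin. The sources give 3 biological replicates in one place and 2 in another, so the libraries may be technical replicates. The SEs used here depend on the level of a gene and not on its own spread. Rounding leaves many genes with no spread, so a floor was put under the variances within groups. With that floor, limma pooled the variance over genes of like level. Genes with the same means therefore have the same p.

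The nuclear pore complex is a channel through the nuclear envelope built from nucleoporins. Scaffold nucleoporins form an outer ring (the Y complex) on either face and an inner ring, membrane nucleoporins anchor it, and nucleoporins with phenylalanine-glycine repeats fill the channel. Importins and exportins carry cargo through those repeats. RCC1 on chromatin keeps nuclear Ran bound to GTP and RANGAP1 at the cytoplasmic face makes it hydrolyse GTP, and this gradient decides where receptors load and release cargo. NPM1 is itself a nucleolar histone chaperone that shuttles between nucleus and cytoplasm through this machinery, so the comparison asks whether the transcripts of the machinery changed when it was depleted.

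Expression is given as the deposited regularized log (rlog) values, log2 levels of each library after correction for its size, with the values of thinly read genes drawn towards their mean. All 75775 values of 1 or more in size were whole numbers, so a step of 1 is the smallest difference a library can show and may stand for an unrounded difference well below or above 1. *Npm1* (ENSMUSG00000057113) had rlog values of 10, 10 and 10 in CTR against 8, 8 and 8 in NPM1 KD, a difference of -2 (SE 0.33, limma adjusted p = 3.23e-06). The neuroblastoma and neuronal markers *Hand2*, *Gata2* and *Isl1* were present, *Nefl* and *Nefm* were at 0, all 4 leukocyte markers were at 0, and all 5 fibroblast markers had a mean count under 1 read. Of the 10 neuronal markers tested, 7 (70.0%, all genes 27.4%) had a lower mean in NPM1 KD. For 6 (60.0%, all genes 5.6%) the groups did not overlap, all of them lower. Called lower were 2 (*Chga* and *Chgb*), beside 0.417% of all genes. The mean of the list ranged from 4.43 to 4.55 in CTR and from 3.97 to 4.15 in NPM1 KD. The total reads per library are not known from the files. The relative depths, from genes with 1 read, were 1.3, 1.24, 1.11, 0.961, 0.833 and 0.784, without a name of the library for any of them.

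None of the 39 tested pore and transport genes passed the threshold (0 called by limma at an adjusted p below 0.05, against 28 of 5752 genes, 0.487%, over all genes tested, of which 0.0695% were higher and 0.417% lower in NPM1 KD). At an unadjusted p below 0.05 there were 4, which is 10.3% of the tested members beside 14.1% of all genes: *Nup210*, *Nup107* and *Ipo5* had lower values in NPM1 KD and *Nup50* higher values, directions that made up 8.07% and 6.07% of all genes. In 24 of the 39 (61.5%) the CTR and NPM1 KD means were equal, beside 48% of all genes, and 19 (48.7%) held a single value in all 6 libraries, beside 40.2%. The mean was lower in NPM1 KD for 11 (28.2%, all genes 27.4%) and higher for 4 (10.3%, all genes 24.6%). The median difference over the members was 0, as over all genes, and their differences ranged from -1 to 0.67. *Nup210* was the member whose NPM1 KD libraries did not overlap its CTR libraries, 2.56% of the members beside 5.6% of all genes (3.41% lower and 2.19% higher). None of these counts was tested against other gene lists. The smallest difference that limma called in any gene was 1.333 on the log2 scale, larger than that of any member.

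**Figure D1:**
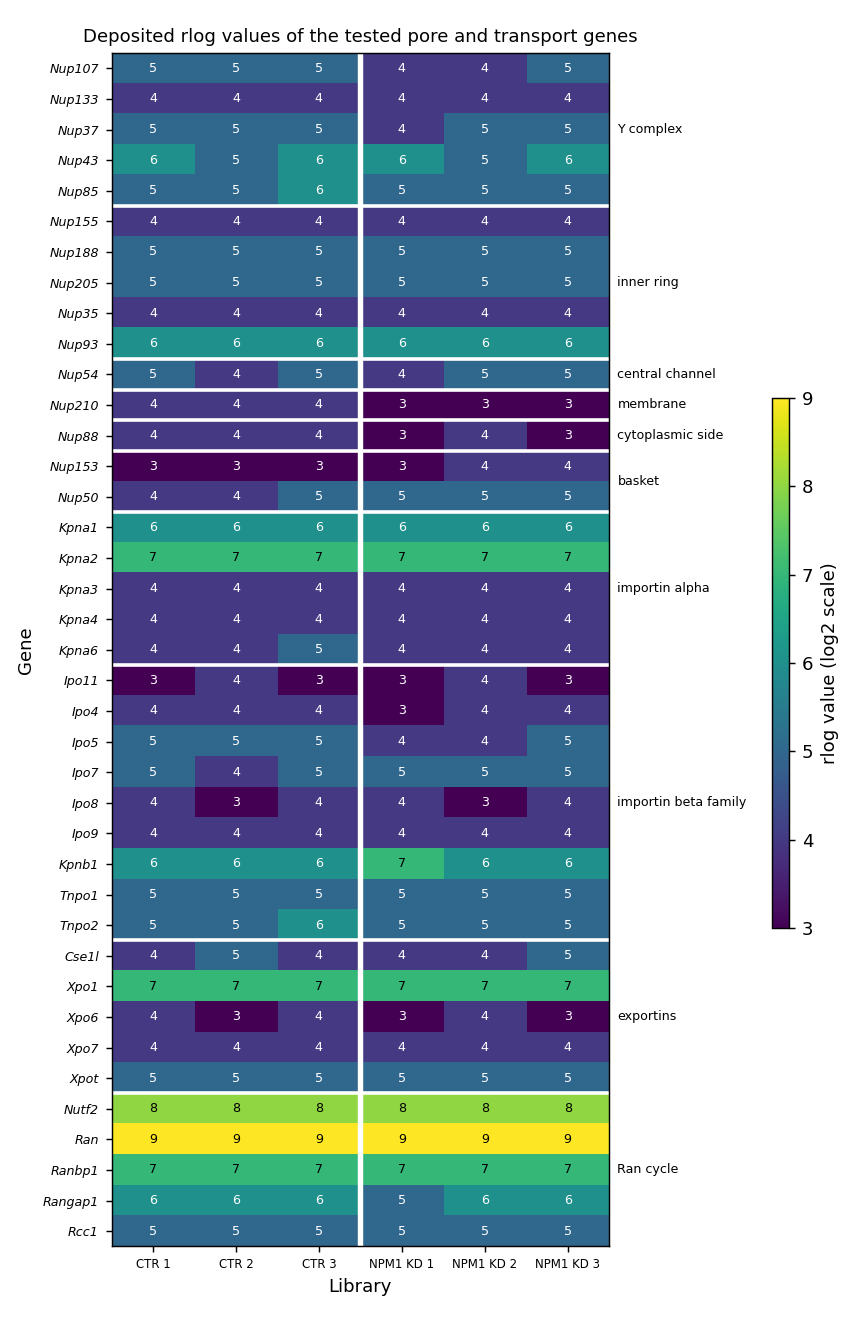
Deposited rlog values (log2 scale, colour and printed number) of the 39 tested pore and transport genes, one row per gene grouped by role, one column per library, with CTR 1 to 3 left and NPM1 KD 1 to 3 right of the white bar. The 19 genes with a single value in all 6 libraries appear as rows of one colour, and *Nup210* is the row whose colour changes at the bar in every library.

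*Nup210* (ENSMUSG00000030091) encodes gp210, a nucleoporin that spans the nuclear membrane and is known to be induced in muscle and neural differentiation. Its rlog values were 4, 4 and 4 in the CTR libraries, against 3, 3 and 3 after NPM1 KD. Every NPM1 KD library was 1 step below every CTR library. The difference was -1 (SE 0.39, 95% interval -1.76 to -0.24, limma adjusted p = 0.166). With such values, leaving out a library or changing the variance model could not alter its direction, so the shared direction is no support. Over the alternatives that kept the gene, its limma adjusted p ranged from 2.44e-09 to 0.742. At a minimum mean of log2 of 20 *Nup210* was not tested. It passed the minimum of log2 of 10 only through its CTR values, since its NPM1 KD mean lay below it, so its test is not independent of that filter. With the minimum lowered to a mean above 0 its adjusted p was 0.0918. It passed the threshold in the fits without the allowance for rounding (adjusted p = 2.44e-09) and without the intensity trend (adjusted p = 0.0304), and in no other fit run on it. Its authors' mean normalized count was 11.5, about 69 reads over the 6 libraries, and counting error on its own gives an SE of 0.347 on the log2 difference. The neuronal marker list, given above, was lower in the same libraries, and its part in the value of *Nup210* was not tested.

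The Y complex is the outer scaffold ring, and 5 of its members were tested. *Nup107* (ENSMUSG00000052798), a core scaffold subunit, was at 5, 5 and 5 in CTR and at 4, 4 and 5 in NPM1 KD. NPM1 KD 3 therefore shared the CTR value, and the groups overlapped. Its difference was -0.67 (SE 0.33, 95% interval -1.31 to -0.02, limma adjusted p = 0.33). *Nup43*, the Y complex gene with the most reads here (mean normalized count 46.7), was at 6, 5 and 6 in CTR and at 6, 5 and 6 in NPM1 KD, a difference of 0 (95% interval -0.66 to 0.66). Its values varied as much within a group as between groups. *Nup37* was 1 step lower in NPM1 KD 1 than in the other libraries, *Nup85* was 1 step higher in CTR 3, and *Nup133* was at 4 in all 6. Over the 5 genes the median difference was -0.33, with 3 lower, 2 equal and 0 higher.

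The 5 inner ring genes, *Nup35*, *Nup93*, *Nup155*, *Nup188* and *Nup205*, encode the scaffold that lines the middle of the channel and holds the central nucleoporins. Each held a single value in all 6 libraries. *Nup93*, the best read of them (mean normalized count 69.0, about 414 reads), was at 6 in CTR 1, 2 and 3 and at 6 in NPM1 KD 1, 2 and 3, a difference of 0 with a 95% interval from -0.67 to 0.67. *Nup35* and *Nup155* were at 4 throughout, and *Nup188* and *Nup205* at 5. The intervals of these 5 genes reach 0.65 to 0.68 on the log2 scale in either direction. They come from the variance pooled over genes and do not bound what rounding can hide, which is any difference under 1.

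Of the central channel genes, *Nup58* and *Nup62* had no entry among the 50 genes found by the symbol rule. *Nup54*, which forms the channel core, was at 5, 4 and 5 in CTR and at 4, 5 and 5 in NPM1 KD. Each group held both values, and the difference was 0 (95% interval -0.64 to 0.64). On the cytoplasmic side, *Nup88*, which anchors *Nup214* near the exit for exported cargo, was at 4, 4 and 4 in CTR and at 3, 4 and 3 in NPM1 KD. NPM1 KD 2 shared the CTR value, and the difference of -0.67 (SE 0.37, 95% interval -1.4 to 0.07) had a limma adjusted p = 0.396.

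The nuclear basket, the filaments on the nucleoplasmic face, was represented by *Nup50* and *Nup153*, the pair of pore genes with a higher mean in NPM1 KD. *Nup50*, which binds importin alpha and speeds the release of import cargo, was at 4, 4 and 5 in CTR and at 5, 5 and 5 in NPM1 KD. CTR 3 shared the NPM1 KD value, and the difference was 0.67 (SE 0.33, 95% interval 0.02 to 1.31, limma adjusted p = 0.33). *Nup153*, which tethers the basket to the pore, was at 3, 3 and 3 in CTR and at 3, 4 and 4 in NPM1 KD, a difference of 0.67 (SE 0.40, 95% interval -0.13 to 1.46, limma adjusted p = 0.47). NPM1 KD 1 shared the CTR value of *Nup153*, and the gene passed the minimum of log2 of 10 only through its NPM1 KD values, since its CTR mean lay below it. *Nup153* was also thinly read, with a mean normalized count of 11.3, about 68 reads over the 6 libraries. *Tpr*, the main basket filament and not matched by the symbol rule, was at 6, 6 and 6 in CTR and at 6, 5 and 6 in NPM1 KD, a difference of -0.33 (95% interval -1 to 0.33).

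The 250 bases before the transcript start are shown for the 3 pore genes with an unadjusted p below 0.05 and for *Ran*, the member with the most reads, whose value was the same in every library. The sequences are RefSeq's for GRCm38.p6, which is not the build named for the deposited tables (GRCm39), and are written along the gene. Capitals mark the GC box GGGCGG, the ETS motif CCGGAAG, the CCAAT box and the E-box CACGTG, read on either strand.
Nup210, chr6:91116827-91117076, minus strand: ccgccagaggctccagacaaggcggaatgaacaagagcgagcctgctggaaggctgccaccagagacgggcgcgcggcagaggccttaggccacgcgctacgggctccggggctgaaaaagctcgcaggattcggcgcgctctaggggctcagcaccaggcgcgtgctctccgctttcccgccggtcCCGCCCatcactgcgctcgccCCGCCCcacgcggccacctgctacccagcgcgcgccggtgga
Nup107, chr10:117792706-117792955, minus strand: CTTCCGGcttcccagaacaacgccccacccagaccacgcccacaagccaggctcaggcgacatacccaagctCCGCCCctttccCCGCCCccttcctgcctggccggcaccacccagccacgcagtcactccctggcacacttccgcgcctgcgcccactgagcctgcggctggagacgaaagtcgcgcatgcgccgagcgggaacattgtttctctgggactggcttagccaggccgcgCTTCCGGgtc
Nup50, chr15:84923178-84923427, plus strand: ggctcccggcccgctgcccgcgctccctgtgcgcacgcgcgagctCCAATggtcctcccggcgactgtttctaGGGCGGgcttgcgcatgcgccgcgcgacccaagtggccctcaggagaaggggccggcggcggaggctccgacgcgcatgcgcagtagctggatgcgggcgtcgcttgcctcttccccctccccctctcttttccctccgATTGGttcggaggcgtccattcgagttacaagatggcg
Ran, chr5:129019906-129020155, plus strand: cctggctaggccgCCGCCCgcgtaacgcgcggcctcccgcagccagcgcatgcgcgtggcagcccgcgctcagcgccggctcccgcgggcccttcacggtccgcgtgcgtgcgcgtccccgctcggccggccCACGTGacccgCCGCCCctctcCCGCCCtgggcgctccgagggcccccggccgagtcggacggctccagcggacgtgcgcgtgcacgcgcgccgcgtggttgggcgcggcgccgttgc
The window of *Nup210* holds 2 GC boxes, that of *Nup107* 2 GC boxes and 2 ETS motifs, and that of *Nup50* 1 GC box and 2 CCAAT boxes. *Ran* has 3 GC boxes and 1 E-box. The GC box was found in each of these windows, and in 61.0% of the promoters of all genes tested. A match describes the letters in this window and says nothing of binding.

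RefSeq promoters were matched for 39 of the 50 genes, and the 31 of these that were tested have 38 promoters. On either strand, the GC box was found in 25 of the 38 (65.8%), beside 61.0% of the 5460 promoters of all genes tested. The CCAAT box was found in 17 (44.7%, all genes tested 36.3%) and the ETS motif in 6 (15.8%, 16.0%), before *Ipo4*, *Nup37*, *Nup54*, *Nup107* and *Nup155*. The E-box was found in 7 (18.4%, 9.3%), those of *Ipo7*, *Nup54*, *Nup93*, *Nup188*, *Ran*, *Tnpo2* and *Xpot*, and the TATA box TATAAA in 3 (7.89%, 6.1%). Their median GC content was 64.8%, beside 60.4% for all genes tested. These shares were not tested.

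Importins alpha are the adaptors that read classical nuclear localization signals. *Kpna2*, with a mean normalized count of 154, was at 7 in each of the 3 CTR and each of the 3 NPM1 KD libraries, a difference of 0 (95% interval -0.68 to 0.68). *Kpna1* was at 6 and *Kpna3* and *Kpna4* at 4 in all 6 libraries, and *Kpna6* was at 4 in all but CTR 3, where it was at 5. The gene named as a copy of *Kpna2*, *Kpna2-ps*, was listed at 0 in every library. How reads shared by *Kpna2* or *Ran* and their processed copies were counted is not given in the sources used here.

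*Kpnb1* encodes importin beta, which carries importin alpha and its cargo through the pore and also takes cargo directly. It was at 6, 6 and 6 in CTR and at 7, 6 and 6 in NPM1 KD, a difference of 0.33 (SE 0.34, 95% interval -0.34 to 1.01, adjusted p = 0.713). The higher value was that of NPM1 KD 1 alone. *Ipo5*, an importer of ribosomal proteins and histones, was at 5, 5 and 5 in CTR and at 4, 4 and 5 in NPM1 KD. NPM1 KD 3 shared the CTR value, and the difference was -0.67 (SE 0.33, 95% interval -1.31 to -0.02, limma adjusted p = 0.33).

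The other 7 tested genes of the importin beta family had differences from -0.33 to 0.33. *Tnpo1*, the transportin for hnRNP proteins, stayed at 5 in all 6 libraries and *Ipo9*, an importer of histones, at 4. *Tnpo2* was 1 step higher in CTR 3, *Ipo4* 1 step lower in NPM1 KD 1, and *Ipo7*, a partner of importin beta, 1 step lower in CTR 2. *Ipo8* and *Ipo11* varied by 1 step within both groups, with equal group means. Over the 14 import receptors tested, 2 had a higher mean in NPM1 KD, 4 a lower mean and 8 the same mean.

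The best-read export receptor was *Xpo1* (mean normalized count 129), or CRM1, which exports proteins with leucine-rich signals, NPM1 among them. *Xpo1* was at 7 in CTR 1, 2 and 3 and at 7 in NPM1 KD 1, 2 and 3, a difference of 0 with a 95% interval from -0.68 to 0.68. *Xpot*, the tRNA exporter, stayed at 5 and *Xpo7* at 4. *Cse1l*, which returns importin alpha to the cytoplasm, was at 4, 5 and 4 in CTR and at 4, 4 and 5 in NPM1 KD, so that a single library was higher in each group. *Xpo6*, the exporter of actin, was at 4, 3 and 4 in CTR and at 3, 4 and 3 in NPM1 KD, a difference of -0.33 (SE 0.39, 95% interval -1.1 to 0.43, adjusted p = 0.752).

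Of the 5 genes of the Ran cycle, 4 held a single value in all 6 libraries. *Ran*, the GTPase itself, was at 9 in all 3 CTR and all 3 NPM1 KD libraries, a difference of 0 (95% interval -0.66 to 0.66). It had a mean normalized count of 586, about 3514 reads, for which counting error alone gives an SE of 0.049 on the log2 difference, less than the step that rounding imposes. *Nutf2*, which brings Ran back into the nucleus, stayed at 8, *Ranbp1*, a cofactor of GTP hydrolysis on Ran, at 7, and *Rcc1*, its nuclear exchange factor, at 5. *Rangap1* was at 6, 6 and 6 in CTR and at 5, 6 and 6 in NPM1 KD, a difference of -0.33 (SE 0.34, 95% interval -1 to 0.33, adjusted p = 0.713), which came from NPM1 KD 1 alone.

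**Figure D2:**
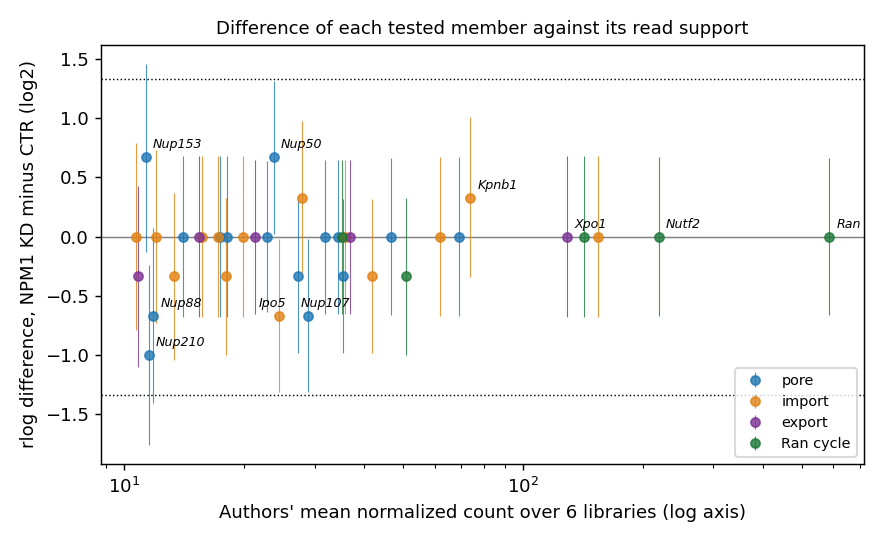
Difference of the rlog value, NPM1 KD minus CTR (log2), of each of the 39 tested members against the authors' mean normalized count (log axis), with 95% intervals from limma as bars and role as colour. Dotted lines mark 1.333, the smallest difference called in any gene. All members lie within them, and the members with differences of -0.67 or more in size have counts under 30, while the best-read member, *Ran*, lies at 0.

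The pore was compared with the import and export receptors as mean rlog values per library. The 15 pore genes averaged 4.6, 4.467 and 4.733 in CTR against 4.333, 4.533 and 4.6 in NPM1 KD, and the groups overlapped. The 14 import receptors averaged 4.714, 4.643 and 4.857 in CTR against 4.643, 4.643 and 4.714 in NPM1 KD, and these overlapped too. The 5 export receptors were at 4.8 in every library but NPM1 KD 1, at 4.6, and the Ran cycle genes at 7 in every library but NPM1 KD 1, at 6.8. The differences of the group means were -0.111 for the pore, -0.0714 for the import receptors, -0.0667 for the export receptors and -0.0667 for the Ran cycle, beside a mean of -0.02393 over all genes tested. No test was made of these means, since the members were chosen with results known.

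The pore mean minus the mean of the 19 import and export receptors came to -0.1368, -0.2175 and -0.1088 in the CTR libraries, against -0.2982, -0.1509 and -0.1368 in those of NPM1 KD. The lowest of these was NPM1 KD 1, and the other NPM1 KD libraries lay within the range of CTR. The difference between the groups was -0.0409. Without NPM1 KD 1 it was 0.0105, the pore difference was -0.0333, and those of the export receptors and of the Ran cycle were 0. Without CTR 3 the pore difference was -0.0444 and that of the import receptors -0.0119, and without CTR 2 they were -0.178 and -0.119. The direction of pore against receptors thus rested on 1 library.

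**Figure D3:**
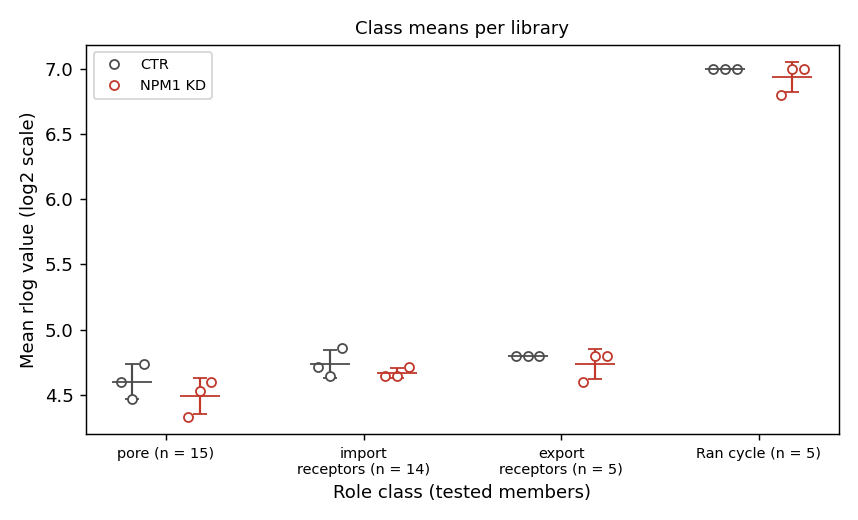
Mean rlog value per library (circles) over the tested members of each role class, CTR in grey and NPM1 KD in red, with the group mean (line) and SD over 3 libraries (bars). Groups overlap in every class, and NPM1 KD 1 is the lowest NPM1 KD library for the pore, the export receptors and the Ran cycle. Heights are not comparable between classes, since rlog values are not per transcript length.

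The libraries were also compared in pairs. Between libraries of the same condition, 4 to 11 of the 39 members differed (10.3% to 28.2%, over 6 pairs), and over all genes tested 21.2% to 27.4% did. Between a CTR and an NPM1 KD library, 6 to 14 differed (15.4% to 35.9%, over 9 pairs), beside 27.2% to 35.8% of all genes. No member differed by more than 1 step in any pair. NPM1 KD 1 was the library that stood alone for the most members: *Rangap1*, *Ipo4* and *Nup37* were lower and *Kpnb1* higher there than in the other 5 libraries. CTR 3 stood alone for *Kpna6*, *Tnpo2* and *Nup85*, each higher, and CTR 2 for *Ipo7*, lower.

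The 11 members under the minimum were not tested. *Nup160* of the Y complex, *Nup98*, whose transcript also encodes the Y complex subunit Nup96, *Nup214* of the cytoplasmic filaments and *Xpo5*, the exporter of microRNA precursors, were at 3 in all 6 libraries. *Tnpo3*, the importer of SR splicing factors, was at 3, 3 and 3 in CTR and at 3, 4 and 3 in NPM1 KD. *Ipo13* was at 2 in every library but NPM1 KD 2, at 3, and *Xpo4* at 2 throughout. *Kpna7*, an importin alpha of the oocyte and early embryo, and *Nup210l*, a testis relative of *Nup210*, had mean normalized counts of 0.341 and 0.128, that is about 2 reads and 1 read over the 6 libraries. *Kpna2-ps* and *Nup62cl* were listed at 0 in every library, as were 11880 genes of the table. None of the 11 had groups that did not overlap.

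A list of 34 other genes of nuclear transport and mRNA export (basket and membrane nucleoporins without the Nup symbol, Ran-binding proteins, and the THO, TREX and NXF1 export factors) was examined beside the members. Of its 25 genes tested, 0 were called by limma (all genes 0.487%). The mean was higher in NPM1 KD for 11 (44.0%, all genes 24.6%), lower for 4 (16.0%, 27.4%) and the same for 10 (40.0%, 48.0%), with a median of 0. At an unadjusted p below 0.05 there were 3 of these 25, a smaller share than the 14.1% of all genes. *Eny2*, a small subunit of the mRNA export complex TREX-2, was at 4, 4 and 4 in CTR and at 5, 5 and 5 in NPM1 KD, a difference of 1 (SE 0.33, 95% interval 0.35 to 1.65, limma adjusted p = 0.0791). Its groups did not overlap (4.0% of the list, all genes 5.6%), and it passed the threshold in the fits without the allowance for rounding or without the intensity trend. *Thoc3* of the THO complex was at 5, 5 and 6 in CTR and at 6, 6 and 6 in NPM1 KD (adjusted p = 0.33). *Ranbp3*, a cofactor of XPO1, was at 4, 5 and 5 in CTR and at 4, 4 and 4 in NPM1 KD (adjusted p = 0.33). *Nxf1*, the mRNA export receptor, was at 5, 5 and 5 in CTR and at 4, 5 and 5 in NPM1 KD, a difference of -0.33 (95% interval -0.98 to 0.31).

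Genes of proliferation were listed as well. Of the 18 tested, 0 were called by limma (all genes 0.487%) and 3 had an unadjusted p below 0.05 (16.7%, all genes 14.1%). The mean was lower in NPM1 KD for 10 (55.6%, all genes 27.4%), higher for 1 (5.6%, 24.6%) and the same for 7 (38.9%, 48.0%). The mean level of the list ranged from 5.42 to 5.74 in CTR and from 5.26 to 5.37 in NPM1 KD. *Mki67*, a marker of cycling cells, was at 6 in the 3 CTR and at 5 in the 3 NPM1 KD libraries, and *Top2a*, the mitotic topoisomerase, at 8 and 7 (adjusted p = 0.0791 for both). Neither overlapped between the groups (11.11% of the list, all genes 5.6%), and both passed the threshold in those same fits. The part of these levels in the values of the pore genes was not tested.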

How the data were processed

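PCR-amplified cDNA from 3 CTR and 3 NPM1 KD N2a libraries was read on an Oxford Nanopore GridION. The submitters' processing notes name minimap2, featureCounts, DESeq2 and GRCm39. Versions, annotation and counting settings, including strand, are not given in the sources used here. The authors deposited rlog values, scores on the log2 scale rounded to whole numbers, and a table from which the mean normalized count over all libraries was used here. Its other columns, the authors' log2 fold change, standard error, statistic and p-values, were not used.

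Of 26913 rows, 257 repeat an Ensembl identifier and were dropped. The rlog values of genes whose mean reached log2 of 10 were fitted in R 4.3.3 by limma 3.58.1 (lmFit, then eBayes with a trend on intensity). A floor of 0.0833, the variance due to rounding, was put under the variances within groups. Tests were two-sided, with Benjamini-Hochberg adjustment over all genes tested and a threshold of 0.05. The scripts were tested on simulated data whose differences were larger than that of any member. That test therefore does not show how well a difference of a single step is found. Members, lists and alternatives were chosen with earlier results of these data known. Named with their values were members past the threshold, members whose groups did not overlap, members with an unadjusted p below 0.05 and the best-read member of each role. Other members, *Nup153*, *Xpo6* and *Rangap1* among them, fall outside this rule and were chosen for their roles after their values were seen. Some listed cell type markers are not reported here by name.

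Total reads per library are unknown, and the tested members rest on about 64 to 3514 reads over the 6 libraries. Counting errors assume independent reads.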

Additional observations from a re-analysis of the deposited data

How the results depend on the processing

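Because the values are rounded to whole numbers, a difference under 1 may be hidden in a member or may appear as a full step, and *Nup210* and *Nup153* rest on about 69 and 68 reads. Of all genes tested, 28 were called, 4 higher and 24 lower in NPM1 KD. Without the allowance for rounding 301 were called (123 higher, 178 lower), without the intensity trend 350 (132 and 218), with 20 imputations of the unrounded values 7 (0 and 7), and without each library in turn 5 to 10. The lower counts without a library come with fewer samples, and the cause of the others was not tested. Of the members, 1 was called without the allowance and 1 without the trend, *Nup210* both times, against 0 with both. Of the other transport genes 1 was called in each of these fits (*Eny2*, higher), and of the proliferation genes 2 in each (lower), against 0. The robust fit, the minimum of log2 of 20 or of a mean above 0, the centred libraries and the repeated identifiers, an alternative added after seeing the data, left the counts of called members at 0. *Npm1* was called under all alternatives run.

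The correlations of the deviations of libraries with the same replicate number were 0.00887, 0.00128 and 0.02982. Those of libraries with different numbers ran from -0.03638 to 0.02450. Since the values are rounded to whole numbers, these correlations do not settle whether the libraries were paired. With the replicate block 8 genes were called (1 higher, 7 lower), and 0 members.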
